A study of Homo sapiens with 42 samples.

Results

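The comparison described here is between 2 times in one line of myeloma cells that received no doxycycline: the 3 arrays whose titles give the control shRNA at 24 h and the 3 whose titles give it at 0 h, 6 of the 42 arrays of the series. RPMI-8226 is an established human line of multiple myeloma, the tumour of antibody-secreting plasma cells. The control line carries, by stable infection, a control hairpin RNA that doxycycline would switch on, and a second line carries a hairpin against BMI1, a Polycomb protein. Both were grown in Advanced RPMI medium with 1% fetal bovine serum and L-glutamine, and induced cultures received 100 ng/ml doxycycline. Neither group compared here was induced, so the hairpin, the medium and the line are shared and the labelled time is what differs. The labels count hours from induction for uninduced arrays too and do not say what was done to these cultures at 0 h. The line is a single infected line, the labels do not say whether replicates were separate cultures, and p-values therefore measure the spread between arrays. The sources used here do not say whether the 0 h and 24 h samples were processed together, so that time and processing cannot be told apart.

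Cells make cholesterol and fatty acids from acetyl-CoA. The enzymes of both pathways are switched on together by the SREBP transcription factors, which are held in the endoplasmic reticulum by INSIG proteins while sterols are plentiful. Plasma cells devote much of their capacity to folding and secreting immunoglobulin, and myeloma cells keep regulators such as IRF4, PRDM1, MYC and, in some tumours, MAF active.

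Values are MAS5 signals, a linear brightness per probe set, and fold changes are differences of log2(signal + 5.4) between 24 h and 0 h with the standard error of the limma fit. A gene was called when its Benjamini-Hochberg adjusted p fell under 0.05 over 14704 genes. The trimmed mean signal was 150.02 to 150.03 on every array. Median signals were 17.4 to 18.9 at 24 h and 17.3 to 18.9 at 0 h. As a measure of RNA integrity, the signal of GAPDH's 3-prime probe set divided by its 5-prime one was 1.03 ± 0.0203 against 1.06 ± 0.0464 (SD, n = 3; exact permutation test, two-sided p = 0.4, where the smallest possible p is 0.1). Correlations across genes were 0.9849 to 0.9851 within the 24 h arrays, 0.9822 to 0.9827 within the 0 h arrays and 0.9814 to 0.9835 between them. The plasma cell markers TNFRSF17, SDC1, XBP1, MZB1 and JCHAIN were bright at 0 h, with mean signals of 1006, 854.7, 2088, 5644 and 10121. EPCAM and KRT18, which mark epithelial cells, were also bright, and the epithelial list summed to 4405 to 4826 at 24 h and 5262 to 5587 at 0 h. Markers of T cells (3 of 6 tested), monocytes (2 of 7) and erythroid cells (2 of 6) summed to at most 57, 42.4 and 53.5 on any of the 6 arrays. Fibroblast markers (5 of 7 tested) summed to 175.8 to 179.8 at 24 h and 180.5 to 220.2 at 0 h, and the B and plasma cell list to 23582 to 24617 and 24664 to 26862. The epithelial, fibroblast and plasma cell sums were thus lower at 24 h without overlap (exact permutation test, two-sided p = 0.1 for each, the smallest possible). Each sum is weighted towards its brightest members. Changes were positive in 4 of 5 fibroblast genes (median 0.18) and 2 of 5 epithelial genes. In the B and plasma cell list they were positive in 8 of 25. The part of these sums in the results was not tested. BMI1 is read here by a probe set shared with the readthrough COMMD3-BMI1, which gave 1296.7, 1214.5 and 1265.9 at 0 h and 1229.3, 1257.2 and 1206.3 at 24 h.

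At 24 h the uninduced control line carried more RNA of the sterol and fatty acid pathways and less RNA of CXCL9, CXCL10, HMOX1, TXNIP and GADD45A. In all, 208 genes were called (1.41% of the 14704 tested), 98 higher at 24 h (0.666%) and 110 lower (0.748%). The changes were small: 8 genes differed at least 2-fold, 3 up and 5 down, and 45 at least 1.5-fold, while the median absolute log2 change of called genes was 0.37. HMGCS1 (2.33-fold) led the rises and CXCL9 (2.02-fold) the falls among genes with a mean signal of 100 or more in the brighter group, which 190 of the called genes reached. The other genes that differed at least 2-fold were dimmer: RYR3-DT, ATP2B3, INKA2-AS1, MYOC, POU2F2 and COXFA4L2. Each of these dimmer genes lost its call without 1 or more of the single arrays. Each of the 208 genes had its 3 arrays at 24 h entirely above or below its 3 at 0 h, as did 22.9% of all genes. The median change over all genes was -0.01. In bulk RNA, fewer cells expressing a gene and less of its RNA per cell cannot be told apart. Leaving out 1 array lowered the count to 108 to 143. The count was 135, 143 and 108 without 24 h replicates 1, 2 and 3, and 112, 134 and 116 without 0 h replicates 1, 2 and 3.

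**Figure D1:**
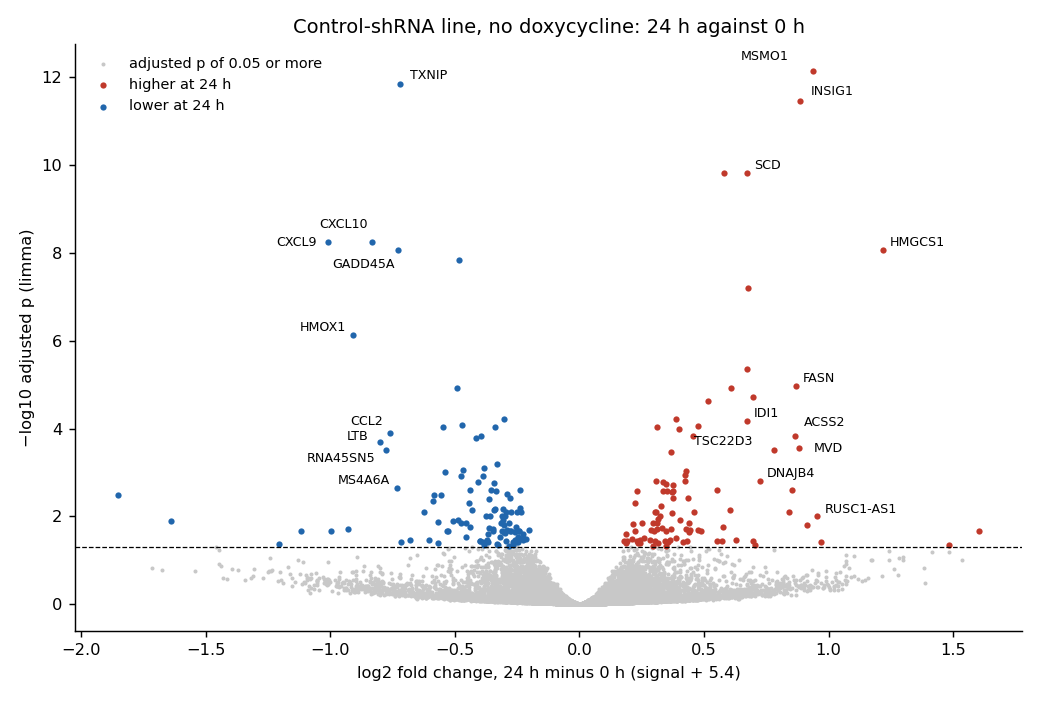
Each point is 1 of 14704 genes, with the log2 fold change from 0 h to 24 h on the horizontal axis and the negative log10 of the limma adjusted p on the vertical axis. The dashed line marks 0.05; red points are the 98 genes higher at 24 h and blue points the 110 lower, with MSMO1, INSIG1 and HMGCS1 at the upper right and TXNIP, CXCL9 and CXCL10 at the upper left.

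Enzymes of cholesterol synthesis rose along most of the pathway. Of the 24 genes of the cholesterol list, 18 were tested, 11 rose and none fell, and the median change was 0.37 against -0.01 for all genes. In 15 of the 18 every 24 h array lay above every 0 h array, which 9.56% of all genes did. The remaining 6 genes of the list were not analysed here. The list and all its tested members are described although they were known to have moved in these samples, so that the count is not independent evidence of its direction.

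At the entry of the pathway, HMGCS1, which condenses acetyl-CoA with acetoacetyl-CoA into HMG-CoA, read 322, 421.7 and 439.3 at 0 h and 926.9, 883.5 and 937.7 at 24 h. The lowest 24 h array was above the highest 0 h array by far more than either group's spread, and the log2 change was 1.22 ± 0.12 (limma adjusted p = 8.5e-09). ACAT2, the thiolase that supplies acetoacetyl-CoA, rose by 0.31 ± 0.05. Among the enzymes that turn mevalonate into isoprenoid units, MVD, the decarboxylase, read 41, 66.9 and 59.7 at 0 h and 115.5, 94.9 and 107 at 24 h, a change of 0.88 ± 0.15 (limma adjusted p = 0.000282). IDI1, the isomerase of the next step, rose from 1117, 1162.5 and 1109 to 1809.4, 1729.3 and 1871.6 (0.67 ± 0.10). The kinases of this stretch were not called, MVK at 0.35 ± 0.11 (adjusted p = 0.111) and PMVK at -0.23 ± 0.08 (adjusted p = 0.175), nor was FDPS, the farnesyl diphosphate synthase, at -0.01 ± 0.09.

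In the later, sterol-forming steps the squalene epoxidase SQLE rose from a mean of 1339 ± 62.5 to 2005 ± 49.6 (SD, n = 3; log2 change 0.58). LSS, which closes the sterol ring, read 1316, 1268.7 and 1342 at 0 h and 2106.4, 2086.4 and 2098.1 at 24 h, a change of 0.68 ± 0.07 (limma adjusted p = 6.16e-08). MSMO1, which removes methyl groups from the ring, read 1687.7, 1679.8 and 1624.4 at 0 h and 3170.6, 3055.4 and 3357.5 at 24 h. Its change of 0.94 ± 0.06 had the smallest adjusted p of all genes (limma, 6.99e-13), and the arrays of each group were close to one another. DHCR7, which completes cholesterol, rose by 0.67 ± 0.09, SC5D by 0.38 ± 0.07 and HSD17B7 by 0.37 ± 0.08. NSDHL (0.31 ± 0.09, adjusted p = 0.0534) and EBP (0.15 ± 0.07, adjusted p = 0.308), 2 further enzymes of this stretch, were not called.

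The regulators of the pathway gave 1 call. INSIG1, the endoplasmic reticulum protein that retains SREBP when sterols are plentiful and is itself an SREBP target, read 1981.9, 1901.4 and 1731.1 at 0 h and 3580.7, 3413.7 and 3380.4 at 24 h. The 24 h values were all far above those at 0 h, with a change of 0.89 ± 0.07 (limma adjusted p = 3.38e-12). SREBF2, which encodes the SREBP of the cholesterol genes, changed by 0.25 ± 0.10 and STARD4, a sterol carrier, by 0.07 ± 0.11, neither of them called. Leaving out single arrays left 10 or 11 members of the list higher, and the other settings 11 to 13. In the fit of only the compared arrays, which gave 13, 1 member was also called lower.

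**Figure D2:**
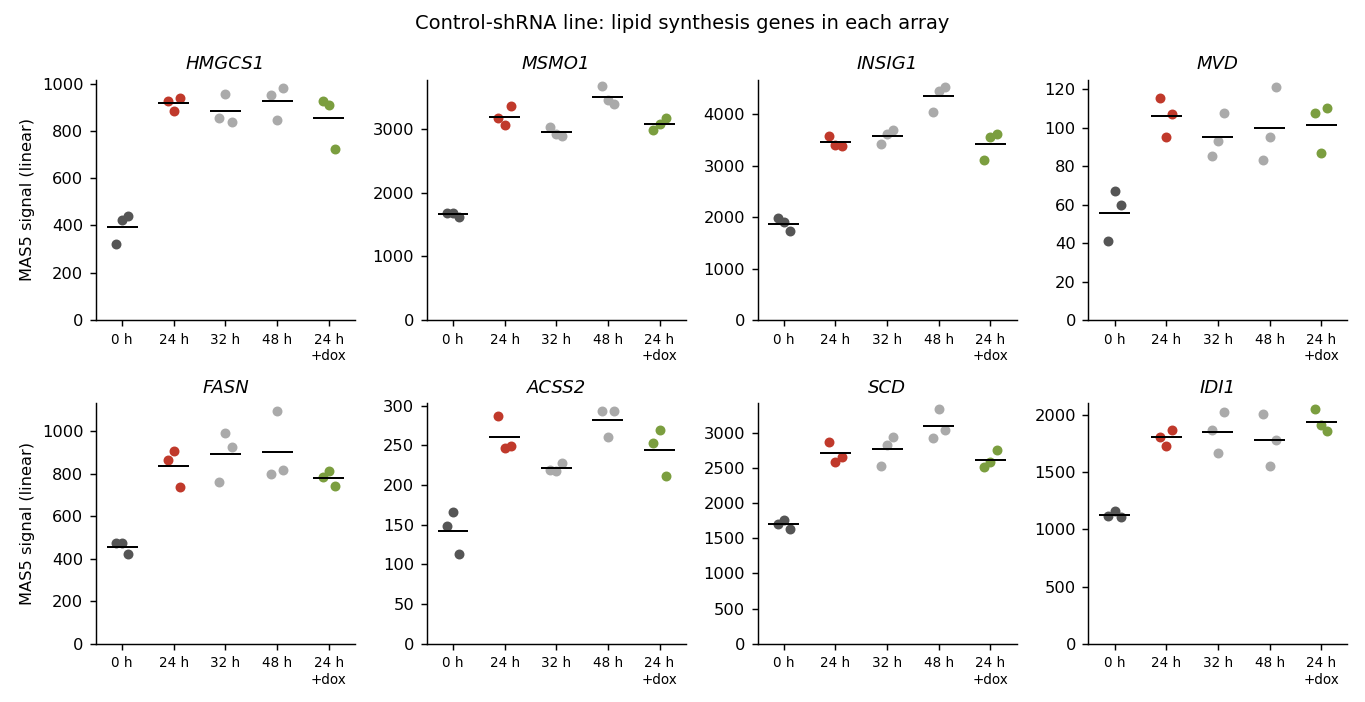
MAS5 signal (linear, from 0) of 8 lipid synthesis genes in every array of the control line at 0, 24, 32 and 48 h without doxycycline and at 24 h with it; points are arrays and bars the means of 3. In each panel the 3 red points at 24 h lie above the 3 dark points at 0 h, and INSIG1 is higher still at 48 h.

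The promoters of the 4 genes of this list with the largest changes are shown because CCAAT boxes, the sites bound by NF-Y beside SREBP, were present in most genes of the list. The windows are the 250 bases before the gene start in RefSeq (GRCh38.p14), written 5′ to 3′ on the gene's strand, with CCAAT or its complement ATTGG in capitals. They lie at chr5:43313413-43313662 on the minus strand, chr4:165327419-165327668 on the plus strand, chr7:155297628-155297877 on the plus strand and chr16:88663092-88663341 on the minus strand.
HMGCS1: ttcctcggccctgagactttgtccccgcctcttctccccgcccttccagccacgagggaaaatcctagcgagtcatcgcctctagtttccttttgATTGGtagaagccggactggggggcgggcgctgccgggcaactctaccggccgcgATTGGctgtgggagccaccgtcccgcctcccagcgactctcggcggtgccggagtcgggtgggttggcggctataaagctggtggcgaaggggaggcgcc
MSMO1: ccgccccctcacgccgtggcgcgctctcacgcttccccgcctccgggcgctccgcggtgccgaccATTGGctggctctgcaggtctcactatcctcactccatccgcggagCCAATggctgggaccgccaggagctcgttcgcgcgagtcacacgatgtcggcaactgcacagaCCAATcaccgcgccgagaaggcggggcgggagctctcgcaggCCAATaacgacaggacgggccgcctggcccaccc
INSIG1: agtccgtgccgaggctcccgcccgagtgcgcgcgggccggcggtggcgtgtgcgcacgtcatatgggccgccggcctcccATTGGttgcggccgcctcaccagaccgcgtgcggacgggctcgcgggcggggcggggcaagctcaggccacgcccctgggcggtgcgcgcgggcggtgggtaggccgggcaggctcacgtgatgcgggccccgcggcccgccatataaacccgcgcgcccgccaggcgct
MVD: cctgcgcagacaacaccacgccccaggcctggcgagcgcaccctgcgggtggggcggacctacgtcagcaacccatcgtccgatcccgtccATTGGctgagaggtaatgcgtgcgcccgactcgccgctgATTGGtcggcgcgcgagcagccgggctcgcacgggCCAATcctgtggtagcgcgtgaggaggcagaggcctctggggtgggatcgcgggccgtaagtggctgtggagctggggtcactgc

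CCAAT occurred on either strand 2 times in HMGCS1, 4 in MSMO1, 1 in INSIG1 and 3 in MVD. A window was found for 16 of the 18 cholesterol genes tested, and 14 of these held the box (87.5%), against 4080 of 11732 windows of all genes tested (34.8%). Among the 11 members that rose, 9 had a window and 8 held it (88.9%), and of the 7 members not called 6 had it (85.7%). Over all called genes the box was in 40 of 81 windows of those that rose (49.4%) and 36 of 85 of those that fell (42.4%). In the fatty acid list 5 of 9 windows held it (55.6%). The sterol element TCACNCCAC was searched in the same windows on both strands. It was in 99 of the 11732 windows (0.844%) and, within the list, in SREBF2 alone. These are matches of letters in a short window and do not show binding.

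Fatty acid synthesis showed the same direction. Of 12 genes on the list 10 were tested, 6 rose and none fell, with a median of 0.49. Of all genes 0.666% rose, and the median was -0.01. All 10 had positive changes, as did 7009 of the 14704 genes tested. In 8 every 24 h array lay above every 0 h array, which 9.56% of all genes did. This list too was chosen with earlier results of these data known, so its count is not independent evidence of direction. FASN, the fatty acid synthase, read 472.1, 471.5 and 421.4 at 0 h and 864.7, 908.3 and 736.9 at 24 h (0.87 ± 0.12, limma adjusted p = 1.05e-05). ACSS2, which makes acetyl-CoA from acetate, read 147.8, 165.8 and 112.6 and then 287.1, 246.5 and 248.6 (0.87 ± 0.14, limma adjusted p = 0.000151). For both genes each 24 h array was above all 0 h arrays, though ACSS2 varied more between replicates. FASN lost its call when its 2 probe sets were averaged.

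SCD, the desaturase that makes oleate, rose from 1700.8, 1760.2 and 1630.5 to 2869.6, 2591.2 and 2662.7 (0.67 ± 0.06, limma adjusted p = 1.49e-10). FADS2, a desaturase of longer fatty acids, rose by 0.57 ± 0.15, ELOVL6, an elongase, by 0.52 ± 0.07, and ACLY, which makes cytosolic acetyl-CoA from citrate, by 0.33 ± 0.07. SREBF1 (0.31 ± 0.11), ACACA (0.22 ± 0.20), ELOVL5 (0.16 ± 0.06) and the dim THRSP (0.46 ± 0.36) were not called. FADS2 lost its call without any 1 of the 6 arrays, and the list kept 4 or 5 calls when an array was left out. Of 7 genes of cholesterol efflux, driven by the sterol sensor LXR, only ABCG1, a cholesterol exporter, was called. It read 113.7, 129 and 111.9 at 0 h and 157.4, 187.8 and 158.6 at 24 h (0.49 ± 0.12), and the call was lost without 24 h replicates 2 or 3, without 0 h replicates 1 or 3, and in the mean of its probe sets.

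**Figure D3:**
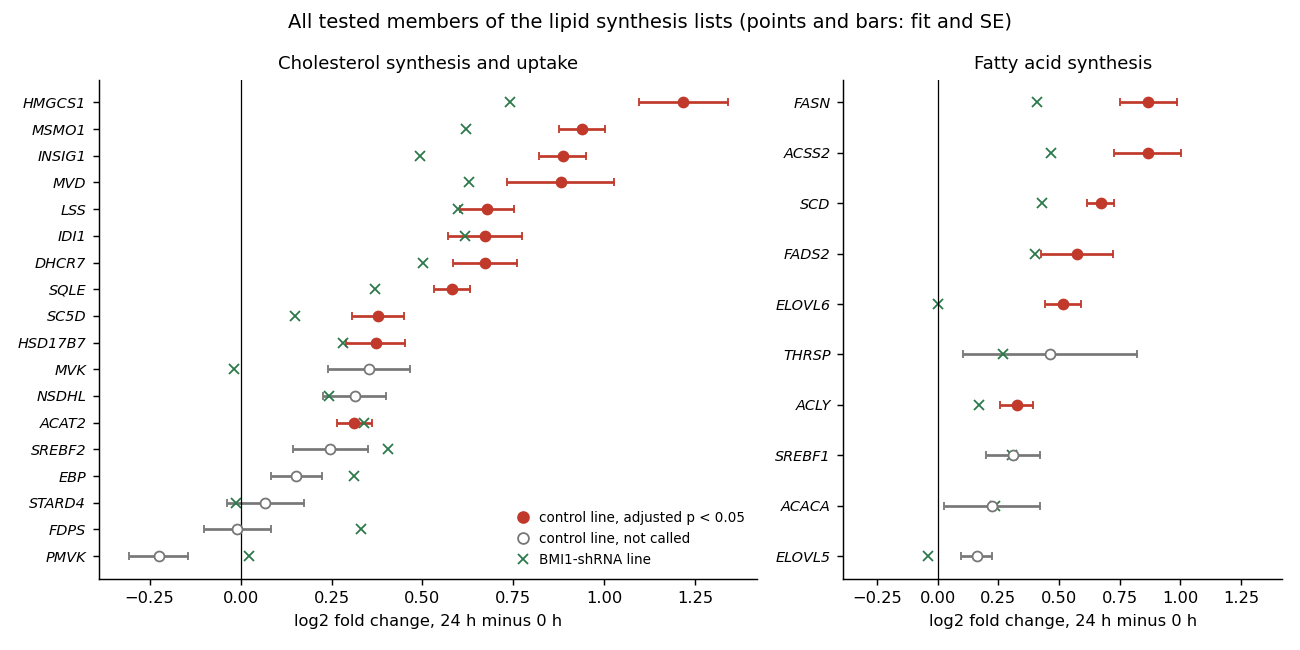
Log2 fold change from 0 h to 24 h of every tested gene of the cholesterol (18) and fatty acid (10) lists in the control line, with limma standard errors as bars; filled red points were called and open points were not, and green crosses give the BMI1-shRNA line. HMGCS1 and FASN head their lists at 1.22 and 0.87, and PMVK is lowest at -0.23.

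Among the other rises with bright signals, TSC22D3, a glucocorticoid- and FOXO-induced leucine zipper protein, read 89.4, 85.1 and 93.2 at 0 h and 154.9, 161.9 and 154.4 at 24 h (0.78 ± 0.13, limma adjusted p = 0.000314). Replicates were close and the groups well apart. It lost the call when its 2 probe sets were averaged, and it was the only call among 16 genes of the FOXO list, whose median was 0.01. DNAJB4 (0.72 ± 0.14) and DNAJB1 (0.48 ± 0.07), both Hsp40 co-chaperones, rose, while DNAJB1 was the single call among 15 heat shock genes. DNAJB1 read 865.8, 811.7 and 869.2 at 0 h and 1245, 1183.7 and 1121 at 24 h.

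RUNX2, a transcription factor of bone, rose from 84.7, 79.3 and 70.4 to 121.2, 137.6 and 131.1 (0.70 ± 0.10, limma adjusted p = 1.92e-05). RARG, a retinoic acid receptor, rose by 0.70 ± 0.19 and the antisense gene RUSC1-AS1 by 0.95 ± 0.21, and both lost their calls without 3 or more of the single arrays. DDIT4, a stress-induced inhibitor of mTORC1, rose by 0.55 ± 0.11 as the one riser among 29 ATF4 and amino acid genes. In that list SLC3A2, an amino acid transporter subunit, fell by 0.32 ± 0.07 on the log2 scale, a call lost without 3 of the single arrays. ISG15, a ubiquitin-like interferon-induced protein, rose by 0.38 ± 0.08, 1 of 27 interferon-stimulated genes tested, whose median was 0.02. Single members also rose in other lists: LTBP1 (0.58 ± 0.14), IDH1 (0.42 ± 0.11) and the clock factor BMAL1 (0.63 ± 0.16), each of which lost its call without 4 or more of the 6 single arrays. Dim genes that rose were RYR3-DT (3.04-fold), ATP2B3 (2.79-fold), CLDN9 (1.96-fold), OLMALINC (1.89-fold) and ZNF826P (1.81-fold), all with mean signals under 100. RYR3-DT and ATP2B3 had mean signals of 3.53 and 2.47 at 0 h, under the added 5.4, so their folds depend on it: the log2 changes ran from 0.85 to 2.38 and from 0.74 to 2.39 over the alternatives. Of these 5, all but ZNF826P lost the call without 4 or more of the single arrays.

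Most mitotic genes had small positive changes, few of them called. Of 36 genes of G2 and mitosis, 32 had positive changes and 4 rose, with a median of 0.16. Among all 14704 genes, 7009 had positive changes and 0.666% rose, with a median of -0.01. ASPM, a spindle pole protein, read 1699, 1631 and 1590.9 at 0 h and 2308.5, 2066.7 and 2127.5 at 24 h (0.40 ± 0.06, limma adjusted p = 0.000105). DLGAP5 rose by 0.22 ± 0.05, NUSAP1 by 0.19 ± 0.05 and TPX2 by 0.19 ± 0.05, all 3 of them spindle proteins. The 4 calls became 1 to 3 when an array was left out. None of 39 genes of G1/S and DNA replication was called, and their median was -0.09, while the phosphatase CDKN3 rose by 0.25 ± 0.06 and the histone gene H2BC12 fell by 0.28 ± 0.07 on the log2 scale, both losing the call without 3 or more of the single arrays.

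CXCL9, CXCL10, CCL2 and LTB were among the larger falls. CXCL9, an interferon-gamma-induced T cell chemokine, read 214.9, 224.8 and 214.4 at 0 h and 125.3, 103.3 and 90.5 at 24 h (-1.01 ± 0.10, limma adjusted p = 5.7e-09). CXCL10, its close relative, read 318.6, 326.5 and 329.4 and then 195.6, 173.7 and 170.9 (-0.83 ± 0.08, limma adjusted p = 5.7e-09). For both chemokines the 0 h arrays were tightly grouped and all 24 h arrays were lower. CCL2, a monocyte chemokine, fell from 235, 252.7 and 310.7 to 156.8, 166.1 and 139.6 (-0.76 ± 0.12). LTB, a membrane-bound member of the TNF family, fell from 169.5, 171.6 and 176.2 to 110.4, 88.9 and 91.8 (-0.80 ± 0.13, limma adjusted p = 0.000203), and lost the call when its 2 probe sets were averaged. CXCL10 and LTB were the 2 calls among 19 NF-kB targets, whose median was -0.13, and none of the 27 genes of the interferon-stimulated list, which does not hold CXCL9 or CXCL10, was called lower.

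The CXCL9 and CXCL10 promoter windows are shown because these neighbouring genes fell together. They are the 250 bases before each gene start in RefSeq (GRCh38.p14), at chr4:76007510-76007759 and chr4:76023498-76023747, both on the minus strand, with matches to the interferon element GAAANNGAA or the NF-kB element GGNNNTTCC, on either strand, in capitals.
CXCL9: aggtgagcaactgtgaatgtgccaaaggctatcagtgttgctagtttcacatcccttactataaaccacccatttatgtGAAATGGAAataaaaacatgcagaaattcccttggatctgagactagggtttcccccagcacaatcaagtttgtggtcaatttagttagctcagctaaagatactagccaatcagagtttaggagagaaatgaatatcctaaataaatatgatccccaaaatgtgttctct
CXCL10: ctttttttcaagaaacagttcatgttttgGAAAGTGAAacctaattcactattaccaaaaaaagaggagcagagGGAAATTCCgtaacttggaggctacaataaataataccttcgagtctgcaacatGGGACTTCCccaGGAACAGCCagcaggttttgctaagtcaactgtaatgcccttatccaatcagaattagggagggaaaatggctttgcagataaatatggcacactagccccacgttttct

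Each window held the interferon element 1 time, beginning 171 bases before the start in CXCL9 and 221 in CXCL10, and 647 of the 11732 windows held it (5.51%). The NF-kB element matched 4 times in CXCL10, 1 place counting on both strands, and its letters were not in the CXCL9 window; 2297 of all windows held it (19.6%). Of the 110 genes that fell, 85 had a window, of which 9 held the interferon element (10.6%) and 30 the NF-kB element (35.3%). The letters of both elements were chosen after these windows were seen, and a match does not show binding.

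**Figure D4:**
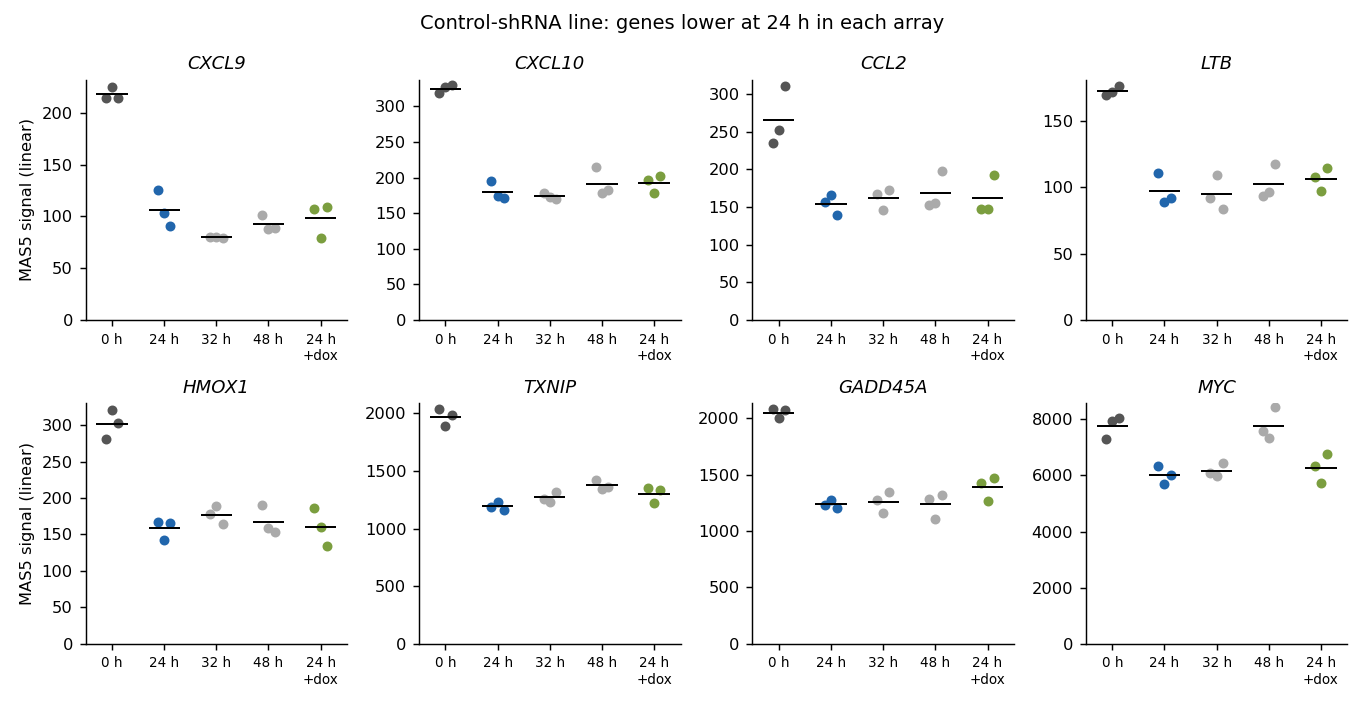
MAS5 signal (linear, from 0) of 8 genes that were lower at 24 h, in every array of the control line at 0, 24, 32 and 48 h without doxycycline and at 24 h with it; points are arrays and bars the means of 3. The 3 blue points at 24 h lie below the 3 dark points at 0 h in each panel, and MYC is back at its 0 h level at 48 h.

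TXNIP, GADD45A, HMOX1 and ADM fell, each as the only called member of its list. TXNIP, which binds thioredoxin and restrains glucose uptake, read 2041.9, 1888.4 and 1986.6 at 0 h and 1189.6, 1233.3 and 1157 at 24 h (-0.72 ± 0.05, limma adjusted p = 1.43e-12). GADD45A, a DNA damage-inducible gene, read 2084.5, 2001.1 and 2071.4 and then 1234.3, 1272.4 and 1204.8 (-0.73 ± 0.07, limma adjusted p = 8.5e-09). The groups of both genes were far apart and their replicates close. HMOX1, the haem oxygenase induced by oxidative stress, fell from 281.6, 320.6 and 303.5 to 166.9, 143 and 165.1 (-0.91 ± 0.11, limma adjusted p = 7.33e-07). Each was the only call in its list: GADD45A of 22 p53 targets, with CDKN1A at -0.38 ± 0.17 (limma adjusted p = 0.32), HMOX1 of 16 oxidative stress genes and TXNIP of 7 genes of its family. Changes were positive in 7, 4 and 2 genes of these lists, with medians of -0.12, -0.08 and -0.06. Over all genes 7009 of 14704 were positive, with a median of -0.01. Without overlap, 9, 5 and 3 genes of the lists lay lower and 4, 2 and 0 higher. Of all genes 13.3% lay lower and 9.56% higher without overlap. ADM, the hypoxia-induced peptide adrenomedullin, fell from 582, 568.7 and 573.4 to 419.8, 355.7 and 400.6 (-0.55 ± 0.09), the only call among 33 glycolysis and hypoxia genes.

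The remaining bright genes that fell were a mixed group. RNA45SN5 (-0.78 ± 0.13) is a copy of the repeated ribosomal RNA gene, so its probe set may read other copies. AAMP fell by 0.59 ± 0.12, the sterol carrier STARD5 by 0.58 ± 0.12, UBXN8 by 0.55 ± 0.11 and RWDD3 by 0.62 ± 0.14 on the log2 scale, the last losing its call without 2 of the single arrays. MS4A6A (-0.73 ± 0.14) had 5 of 7 probe sets with the same sign and lost its call in their mean. METTL6 (-0.68 ± 0.18) lost its call without any 1 of the 6 arrays, and DCAKD (-0.60 ± 0.15) without 4 of them. Dim genes that fell were INKA2-AS1 (3.61-fold), MYOC (3.11-fold), POU2F2 (2.31-fold), COXFA4L2 (2.17-fold) and SAMD10 (1.99-fold), each of which lost its call without 1 or more of the single arrays. The log2 changes of INKA2-AS1 and MYOC ran from -2.49 to -1.10 and from -2.18 to -0.97 over the alternatives.

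Plasma cell genes moved in both directions. PRDM1, the repressor that drives plasma cell differentiation, read 772.8, 749.8 and 776.3 at 0 h and 530.9, 541.4 and 567.5 at 24 h (-0.48 ± 0.05, limma adjusted p = 1.47e-08), and lost the call when its 3 probe sets were averaged. TNFRSF17, the BCMA receptor of plasma cells, rose from 1057.6, 995.6 and 964.6 to 1295.7, 1357.2 and 1301.6 (0.39 ± 0.06, limma adjusted p = 6.07e-05). With the dim POU2F2 they were the 3 calls among 25 B and plasma cell genes, whose median was -0.08. IRF4 read 1152, 1032.9 and 963.7 at 0 h and 1088, 1027.1 and 1082.7 at 24 h, overlapping groups with a change of 0.03 ± 0.06.

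MAF, a transcription factor overexpressed in some myelomas, read 6506.1, 6278 and 6217.1 at 0 h and 4709.2, 4263.8 and 4396.6 at 24 h (-0.51 ± 0.12, limma adjusted p = 0.0127). MYC fell from 7305.8, 7958.2 and 8059.2 to 6340.7, 5697.4 and 6002.1 (-0.37 ± 0.09, limma adjusted p = 0.0341), and lost the call without any 1 of the 6 arrays. CCND2, a D-type cyclin, changed by -0.27 ± 0.08 (adjusted p = 0.0644). These are bright genes, and the 100 brightest genes read lower at 24 h as a class. All of the 100 had negative changes, with a median of -0.23, and none was called. GAPDH was one of these at -0.28 ± 0.13 (adjusted p = 0.337). MAF, MYC and CCND2 were dimmer than these 100, whose lowest mean signal was 8650. They belonged to the 900 next brightest genes, with mean signals of 1923 to 8621. Of those 900, 253 had positive changes, 13 were called higher and 10 lower, and the median was -0.06. The 20 ribosomal protein genes tested, 19 of them among the 100 brightest, all lay lower without overlap, which 13.3% of all genes did, with a median of -0.25 and no call, though 18 of the 20 were called lower when the compared arrays alone were fitted. After quantile normalization the medians were 0.0013 for the 100 brightest genes and -0.01 for the ribosomal proteins, while MAF and MYC kept their calls. The part of this brightness shift in their falls was not tested. Centring the arrays on the median ended the call of MYC, and MAF lost its call without 3 of the single arrays and in the mean of its probe sets.

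Smaller falls were called for the early response gene IER5 (-0.24 ± 0.05), the endoplasmic reticulum chaperone HSP90B1 (-0.23 ± 0.06), the lysosomal protease CTSA (-0.25 ± 0.06), the Polycomb ligase RING1 (-0.23 ± 0.06), the mitochondrial ribosomal protein MRPS12 (-0.30 ± 0.08) and the keratin KRT18 (-0.30 ± 0.07). Apart from IER5, each lost its call without 4 or more of the 6 single arrays. No gene was called among 25 proteasome, 34 oxidative phosphorylation, 14 BCL2 family, 27 cytokine receptor and JAK-STAT, 21 adhesion, 20 MYC and ribosome biogenesis, or 12 metallothionein and zinc transporter genes. In the order given, 8, 14, 8, 3, 5, 8 and 5 genes of these lists lay lower without overlap. Those higher without overlap were 1, 0, 1, 2, 1, 2 and 1. Of all genes 13.3% lay lower and 9.56% higher without overlap. The nearest gene of these lists to a call was BCL2L1, an anti-apoptotic BCL2 relative, at -0.53 ± 0.15 (limma adjusted p = 0.0567), followed by the metallothionein MT1E at -0.39 ± 0.12 (adjusted p = 0.084).

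Later arrays of the same line show where these levels stood afterwards. They share the 0 h or 24 h arrays with the comparison above, so their values are set side by side. Against 0 h, 370 genes were called at 32 h (2.52%), 185 higher (1.26%) and 185 lower (1.26%). At 48 h 742 were called (5.05%), 365 higher (2.48%) and 377 lower (2.56%), and at 24 h with doxycycline 214 (1.46%), 111 higher (0.755%) and 103 lower (0.7%). Between 32 h and 24 h limma called no gene (0% of those tested; 820 had an unadjusted p under 0.05), and between 48 h and 24 h it called 124 (0.843%), 79 higher (0.537%) and 45 lower (0.306%). The median of the cholesterol list against 0 h was 0.37 at 24 h, 0.44 at 32 h, 0.49 at 48 h and 0.38 at 24 h with doxycycline, and 11, 11, 13 and 11 of its 18 genes were higher. HMGCS1 averaged 916 ± 28.7 at 24 h, 883.4 ± 65 at 32 h, 926.3 ± 73.1 at 48 h and 853.8 ± 113 with doxycycline (SD, n = 3).

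Some genes were higher at 48 h than at 24 h: INSIG1 by 0.33 (limma adjusted p = 0.00583), LSS by 0.33 (adjusted p = 0.0216), ABCG1 by 0.68 (adjusted p = 0.00117), TNFRSF17 by 0.30 (adjusted p = 0.00551) and IRF4 by 0.40 (adjusted p = 6.12e-05). MAF and MYC, lower at 24 h, were higher at 48 h than at 24 h, by 0.52 (adjusted p = 0.0166) and 0.37 (adjusted p = 0.0482), with 48 h means of 6428 and 7780. Against 0 h, the 100 brightest genes had a median of -0.23 at 24 h and 0.03 at 48 h. The ribosomal proteins had -0.25 and 0.03, and the 900 next brightest genes, with MAF and MYC, -0.06 and -0.03. The part of this shift in the rises of MAF and MYC was not tested. TXNIP rose by 0.20 from 24 h to 48 h (adjusted p = 0.0422), to a mean of 1374.5, under each 0 h array. The 48 h means of CXCL9, CXCL10 and HMOX1 were 92.8, 191.7 and 167.4, near those at 24 h. Some calls at 24 h did not recur. RNA45SN5, AAMP, METTL6, DCAKD and RARG were not called against 0 h at 32 h, at 48 h or at 24 h with doxycycline. RNA45SN5 changed by -0.44, -0.40 and -0.34 in these and AAMP by -0.37, -0.20 and -0.36. The mitotic list gave 22 higher genes at 32 h and 13 at 48 h against 0 h, beside 4 at 24 h.

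The BMI1-shRNA line gives the same interval in other arrays. Its 0 h arrays carry conflicting labels: their titles give no doxycycline, their characteristics give doxycycline and their source name gives the control shRNA. Their shared BMI1 probe set read 1069.4, 1009.3 and 1018.3, against 963.4, 758.3 and 1058.9 at 24 h without doxycycline and 168.6, 218.1 and 234 at 24 h with it. In that line 254 genes were called from 0 h to 24 h (1.73%), 92 higher (0.626%) and 162 lower (1.1%). Of these, 43 were called in the same direction in the control line, 20.7% of the control line's calls and 16.9% of the BMI1-shRNA line's, and 1 in the opposite direction.

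The sign was the same in 164 of the 208 control-line genes (78.8%), against 51.6% of all genes. Pearson's r of the changes was 0.62 across the 208 genes, which were selected in one of the lines, and 0.04 across all genes. These are descriptions across genes, which are not replicates. The cholesterol list had 11 higher genes and a median of 0.36 there, and the fatty acid list 1 higher gene and a median of 0.29. HMGCS1 changed by 0.74 ± 0.12, MSMO1 by 0.62, PRDM1 by -0.53 ± 0.05, GADD45A by -0.53 and RUSC1-AS1 by 0.95, each called. Other genes named for the control line were not called in the BMI1-shRNA line. Among them were FASN (0.41), ACSS2 (0.46), TSC22D3 (-0.04), HMOX1 (-0.36), CCL2 (-0.10), RNA45SN5 (-0.15), AAMP (0.08) and DCAKD (0.22). The 100 brightest genes had a median of 0.20 there, and the ribosomal proteins 0.20.

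**Figure D5:**
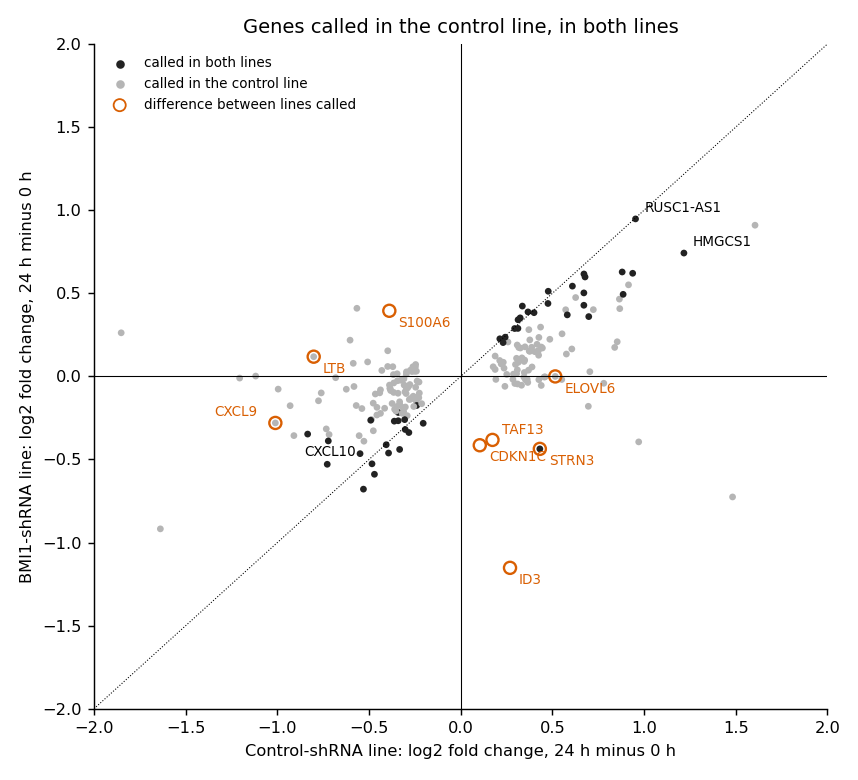
Log2 fold change from 0 h to 24 h in the control line (horizontal) and the BMI1-shRNA line (vertical) for the 208 genes called in the control line, black where also called in the BMI1-shRNA line. Orange rings mark the 8 genes whose changes differed between the lines, 4 of which are among the 208; the dotted line marks equal change.

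The test of the difference between the lines called 8 genes (0.0544%), 5 with the higher change in the control line (0.034%) and 3 with the lower (0.0204%), and 1840 had an unadjusted p under 0.05. Among the falls described above, CXCL9 and LTB had the lower change in the control line, with differences of -0.73 ± 0.14 (limma adjusted p = 0.0294) and -0.92 ± 0.19 (adjusted p = 0.0301). Neither was called in the BMI1-shRNA line, where they changed by -0.28 ± 0.10 and 0.12 ± 0.13. In the BMI1-shRNA line CXCL9 was brighter throughout, at 770.5, 787.7 and 755.2 at 0 h and 645.3, 628.2 and 628.6 at 24 h, and LTB dimmer, at 48.4, 57.2 and 54.3 and then 52, 64.3 and 58.9. Among the lipid genes the difference was called for ELOVL6 (0.52 ± 0.10, adjusted p = 0.0301), which read 286.4, 288.7 and 320.7 and then 296.7, 286.9 and 311.4 there. The differences of CXCL9 and LTB lost the call without 9 of the 12 single arrays and that of ELOVL6 without 10. For INSIG1 the difference of 0.39 ± 0.09 did not pass (adjusted p = 0.0975), nor for TXNIP (-0.33 ± 0.07, adjusted p = 0.0575) or HMGCS1 (0.48 ± 0.17, adjusted p = 0.227). PCED1A changed by -0.57 ± 0.15 in the control line, and its difference of -0.98 ± 0.21 did not pass either (adjusted p = 0.0575).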

How the data were processed

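Biotin-labelled cRNA from 42 samples, 14 groups of 3, was hybridized to 1 Affymetrix U133 Plus 2 array each. The unit of the deposited table is intensity, a linear signal for each probe set from MAS5 (version not stated), per the submitters' processing notes. Their common trimmed mean (2% off each end) shows scaling to one target. Arrays have no read depth, and 3 per group limit the precision.

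A probe set was kept if 3 or more of the 42 arrays had it no lower than their own median, and 5.4, the 25th percentile of all values, was added before log2. Of 54675 probe sets, 41097 had 1 gene symbol in the platform annotation, 1801 several and 11715 none, beside 62 controls. Each gene is its brightest kept probe set with 1 symbol. 14 group means over all arrays were fitted with limma 3.58.1 (R 4.3.3), its variances moderated by eBayes along a trend in intensity, with 28 residual and 8.62 prior degrees of freedom. Tests were two-sided. On simulated data for the 24 h against 0 h comparison over 14704 genes, 49% of changes of log2 0.5 and 71% of log2 1 were recovered, with 5 false calls. The simulated noise was independent between genes. A shift shared by many genes, such as that of the brightest genes here, was not simulated, so the false calls do not cover it.

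Members and 41 gene lists (841 symbols, 730 tested) were chosen with earlier results of these data known. Genes named are the 15 highest and 15 lowest called, non-overlapping genes with a brighter group of at least 100, the 5 highest and 5 lowest dimmer called genes, up to 4 called members of each list (2 as values where none was called), up to 5 genes each way in the difference between lines (with fewer called, those of smallest p), and BMI1, MYC, CCND2, IRF4, CDKN1A, TXNIP and GAPDH. Every tested gene of the cholesterol and fatty acid lists is also named, a choice made after its values were seen. Alternatives were quantile normalization, median centring, pseudocounts of the median value or of 1, averaged probe sets of a gene, every probe set as a feature, filters at the 75th percentile or none, no intensity trend, a fit of only the compared arrays, one omitting the BMI1-shRNA line at 0 h, a replicate block, and each array left out in turn. RefSeq promoter windows (GRCh38.p14) were found for 11732 of the genes tested.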

Additional observations from a re-analysis of the deposited data

Results flagged for a closer look

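The change from 0 h to 24 h without doxycycline differed between the control line and the BMI1-shRNA line for 8 genes in limma's test of the difference over all genes. Each result here rests on the 0 h arrays of the second line, whose labels conflict over line and doxycycline. Differences are the control line's log2 change minus that of the BMI1-shRNA line.

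ID3, an inhibitor of basic helix-loop-helix transcription factors, had the largest difference, 1.42 ± 0.21 (adjusted p = 0.000782). It read 189.3, 165.2 and 187.8 at 0 h and 73.6, 88.9 and 73.1 at 24 h in the BMI1-shRNA line, against 129.9, 130.9 and 105.5 and then 148.6, 140.8 and 153.5 in the control line. ID3 was thus lower at 24 h in all 3 arrays of one line, with no overlap, and higher in all 3 of the other, where the change was not called (0.27 ± 0.15, limma adjusted p = 0.427). It was called without each of the 12 arrays in turn and in all 10 other settings.

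STRN3, a striatin of phosphatase complexes, differed by 0.87 ± 0.16 (adjusted p = 0.0228), rising in the control line and falling in the BMI1-shRNA line, where it read 178.5, 143.5 and 149.9 and then 113.1, 108.5 and 121.8. TAF13, a subunit of TFIID, differed by 0.56 ± 0.11, and CDKN1C, the cell cycle inhibitor p57, by 0.52 ± 0.10 (both adjusted p = 0.0294). TAF13 and CDKN1C fell in the BMI1-shRNA line, by 0.38 and 0.41 on the log2 scale, and were not called in the control line. The elongase ELOVL6 differed by 0.52 ± 0.10, with no change called in the BMI1-shRNA line. In the other direction LTB differed by -0.92 ± 0.19, S100A6, a calcium-binding protein, by -0.78 ± 0.15 and CXCL9 by -0.73 ± 0.14. S100A6 read 2118.1, 2041 and 1931.8 at 0 h and 2614.1, 2688 and 2705.8 at 24 h in the BMI1-shRNA line, and 1320.3, 1100.7 and 1206.5 and then 1012.7, 887.6 and 864.6 in the control line. Apart from ID3, each of these lost the call without 5 or more of the 12 arrays left out singly.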

How the results depend on the processing

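None of the 69 named genes called in the control line changed sign under any alternative run, while 10 of the 38 not called did, IRF4 and CDKN1C among them. Of the 69, 29 kept the call throughout, 32 lost it in at least 1 setting and 34 without at least 1 array, while 15 of the 38 were called in some alternative. The 208 calls of the control line became 326 with every probe set as a feature (of 35232) and 550 when the compared arrays alone were fitted, and 108 to 143 with 1 array left out. Averaging a gene's probe sets gave 151 calls, 109 of them shared with the 208. The 254 calls of the BMI1-shRNA line became 158 with median centring and 153 with averaged probe sets, and 78 to 164 with 1 array left out. Its split of 92 higher and 162 lower became 141 and 137 after quantile normalization and 82 and 76 after centring. The 8 differences between lines became 15 with quantile normalization, 15 with the filter at the 75th percentile, 4 with every probe set and 505 with the compared arrays alone, and 1 to 12 with 1 array left out; centring split them 4 and 4. Deviations of arrays with the same replicate number correlated at 0.01107, -0.05016 and 0.01633, so the number was not used to pair arrays, and with it as a block 231 genes were called in the control line (207 shared), 236 in the BMI1-shRNA line and 8 in the difference. Causes of these differences were not tested. Dim genes, near the signals at which replicates differ most, are the least certain.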
